A study of Arabidopsis thaliana with 31 samples.

Results

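The 41 tau and phi glutathione transferases of *Arabidopsis thaliana*, *GSTU1* to *GSTU28* and *GSTF2* to *GSTF14*, were followed in single root cells, among 32678 loci in the expression table. They comprise 28 tau and 13 phi members and were taken by locus, and all 41 loci were found in the table. The family was singled out because *GSTU19* (AT1G78380) was among the highest 5% of loci in every quiescent center (QC) cell, so that the levels of *GSTU19* in QC cells are a description and support nothing. Just outside that threshold were *GSTU24*, in the highest 5% in 18 of 20 QC cells, and *GSTU5*, *GSTU6*, *GSTU7*, *GSTU22* and *GSTF8*, each in 16. All plants were Col-0. The 20 single QC cells and 4 aliquots of pooled and split QC cells came from *WOX5:GFP* roots labelled 6 DAS, although the methods give a harvest 1 day earlier. The 7 stele cells came from *WOL:CRE-GR 35S:lox-CFP* roots labelled 7 DAS. Of these, 3 came from roots whose tip was cut off just before harvest (0 h) and 4 from roots harvested at 16 h. In these plants the *WOL* promoter drives a Cre recombinase that dexamethasone activates, and all 7 stele cells carry that treatment, while QC cells do not. Every root, controls included, passed through about 1 hour of cell wall digestion before a fluorescent cell was picked by pipette. The cells at 0 h were thus picked after both the cut and the digestion. The paper states that the QC cells were collected in 4 batches, and the sample labels name no batch. The stele reporter marks a stele origin and not a present identity, and no source names the plant of a cell. Each group was therefore treated as 1 sample, and no difference between groups was tested.

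Glutathione transferases join the tripeptide glutathione to reactive, often toxic molecules, and the conjugates are then carried into the vacuole by transporters of the ABCC type. The tau and phi classes are the large plant classes of the superfamily and are known for the detoxification of herbicides and for strong induction by xenobiotics, oxylipins and other stress signals. Many members lie in tandem arrays of close copies, so that a short read can match several of them. Known roles are uneven: *GSTF6* takes part in camalexin synthesis, *GSTF12* (TT19) in pigment transport to the vacuole, *GSTU24* and *GSTU25* in the detoxification of explosives, and most others have a sequence and a pattern of induction but no settled substrate.

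Levels are given as fragments per 1000000 reads on annotated genes (FPM), and differences as log2(FPM + 1). The QC cells had 12071810 to 115114702 reads, the aliquots 83718007 to 127775758, the stele cells 11637897 to 28121886 at 0 h and 23387890 to 35185668 at 16 h. In several sets of libraries, every gene above 0 was also above 0 in the first library of the set, so that a gene at 0 there was at 0 in the whole set. QC cell 1 was the first for QC cells 8 to 13, QC cell 2 for 3 to 7 and QC cell 14 for 19 and 20, whereas QC cells 15 to 18 were in no set. A set each, led by replicate 1, was formed by the aliquots and by the stele cells of either time. Of the 41 members, 21 were at 0 in QC cell 1, 25 in QC cell 2, 17 in QC cell 14, 11 in aliquot 1, 23 in stele 0 h cell 1 and 17 in stele 16 h cell 1. Hardly any difference was seen between QC cells 15 and 16 or between 17 and 18 (median chi-square over loci of 2.38 and 2.41, with the next pair at 184). The Pearson correlation of the log2 values was 0.958 for both pairs. It was also high for QC cells 9 and 11 (0.944) and for 5 and 7 (0.916), none of which was left out as a copy. Of 6 QC markers, *WOX5*, *PLT1*, *PLT2*, *BBM* and *SCR* were above 0 in all 20 QC cells and *AGL42* in 1, and the summed level was 745 to 5196 FPM in QC cells and at most 19.7 in stele cells. All 6 stele markers were above 0 in all 3 stele cells at 0 h, where they summed to 439 to 1138 FPM, against 4.69 to 208 at 16 h and 0 to 672 in QC cells. *SHR*, a stele transcription factor, was listed at 0 in every stele cell at 16 h, and all root cap and endodermis markers were listed at 0 in every library. Of 3 epidermis genes, *WER* and *COBL9* were listed at 0 in every library, whereas *GL2* had 4.65, 0.256, 0.0366 and 0.0428 FPM in the stele cells at 16 h, 1.40 in QC cell 14 and 0 elsewhere.

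The family as a whole gave between 0.463% and 3.30% of the reads of a QC cell. In FPM, the summed level had a median of 12764 in QC cells (4630 to 33020) and was 28022, 28571, 29485 and 31665 in the aliquots. Stele cells at 0 h had 6129, 907 and 12547 FPM, and those at 16 h had 10969, 4341, 12857 and 3493. The stele ranges overlapped each other and the range of the QC cells, and only the aliquots were narrow. Stele 0 h cell 2, the lowest of all libraries for the family, had the most reads of its group. Without it, the median at 0 h was 9338 FPM. Among QC cells, the set led by QC cell 14 (22695 to 28380 FPM) and QC cells 15 and 16 (32466 and 33020) were the highest, and QC cells 6, 10 and 8 (4630, 5219 and 6292) the lowest. Depth differed as well, and QC cells 14, 16, 19 and 20 had the most reads. The part of depth and of the sets in these levels was not tested.

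**Figure D1:**
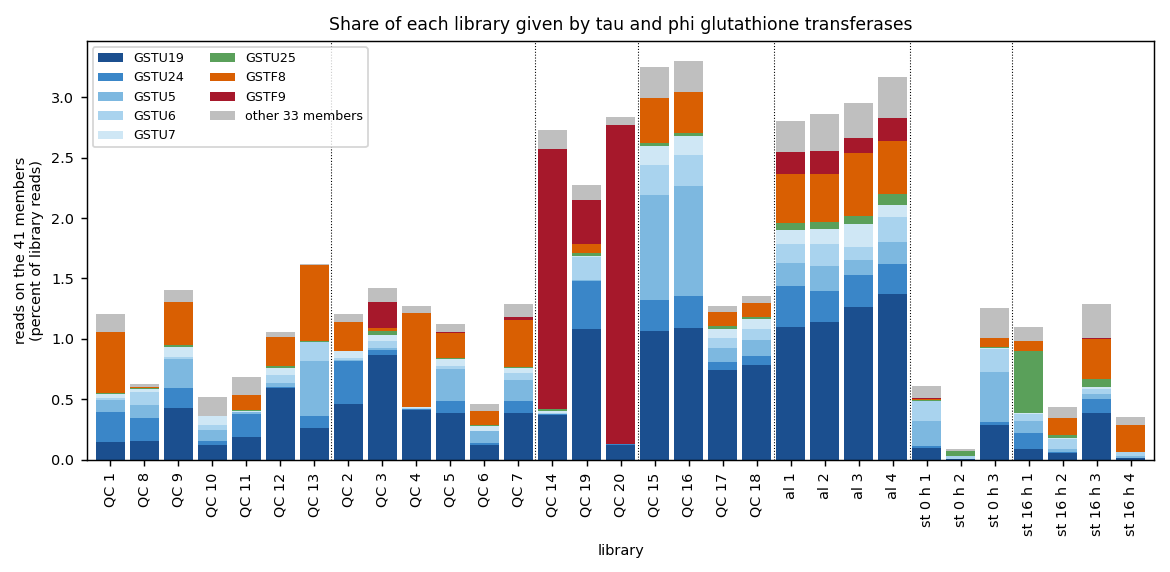
Reads on the 41 members as a percent of all reads on annotated genes in each of 31 libraries (QC, single QC cell; al, aliquot; st, stele cell), stacked by member, with dotted lines between sets of libraries. The aliquots resemble each other at 2.80% to 3.17%, while *GSTF9* gives most of the family in QC cells 14 and 20 and *GSTU25* gives 46.7% of it in stele 16 h cell 1.

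In terms of composition, *GSTU19* gave a median of 31.4% of the reads of the family in a QC cell (4.4% to 61.3%) and had the most reads of any member in 12 of 20 cells. *GSTF8* led in 4 cells, *GSTF9* in 2 and *GSTU24* in 2. Phi members gave a median of 20.4% of the reads of the family (0.133% to 94.6%), with QC cells 20 (94.6%), 14 (82.8%) and 4 (63.4%) at the top and QC cell 10 at the bottom. In the aliquots the phi share was 22.4% to 25.0% and the share of *GSTU19* 39.1% to 43.4%. Stele cells at 0 h had a phi share of 7.15% to 13.9%, and those at 16 h 9.48%, 36.8%, 36.8% and 67.5%, so that only stele 16 h cell 1 fell in the range of the 0 h cells. In the stele, the leading member was *GSTU5* in 0 h cells 1 and 3, *GSTU25* in 0 h cell 2 and 16 h cell 1, *GSTF8* in 16 h cells 2 and 4, and *GSTU19* in 16 h cell 3.

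A QC cell expressed a median of 17.5 of the 41 members above 0 (12 to 24). Of all loci, a median of 17.9% were above 0 in a QC cell (14.2% to 33.8%). The members above 0 in all 20 QC cells were 11, namely *GSTU1*, *GSTU2*, *GSTU4*, *GSTU5*, *GSTU6*, *GSTU7*, *GSTU19*, *GSTU22*, *GSTU24*, *GSTU25* and *GSTF8*, which is 26.8% of the family where 5.52% of all loci were above 0 in every QC cell. *GSTU19* chose the family and is 1 of the 11. The 20 cells are not independent draws, since zeros follow the first library of a set and some cells are near copies, and no interval is given for these shares. A further 8 members (19.5%, against 12.8% of all loci) were above 0 in 10 to 19 QC cells. In 1 to 9 cells there were 7 (17.1%, against 24.8% of all loci). *GSTU10*, *GSTU17*, *GSTU18*, *GSTF6* and *GSTF7* were at 0 in all QC cells but above 0 in another library (12.2%, against 10.5% of all loci). The remaining 10 members, *GSTU8*, *GSTU9*, *GSTU12*, *GSTU15*, *GSTF4*, *GSTF5* and *GSTF11* to *GSTF14*, were listed at 0 in all 31 libraries, 24.4% of the family against 46.4% of all loci. Among them are *GSTF12*, the pigment transport gene, and *GSTF11*, which acts in glucosinolate synthesis and whose exons another gene overlaps over their full length. The count of 11 depended on the level asked for, since only 7 members were at 1 FPM or more in every QC cell, and 3 at 10 FPM or more. The share of all loci at these 2 levels was not counted.

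**Figure D2:**
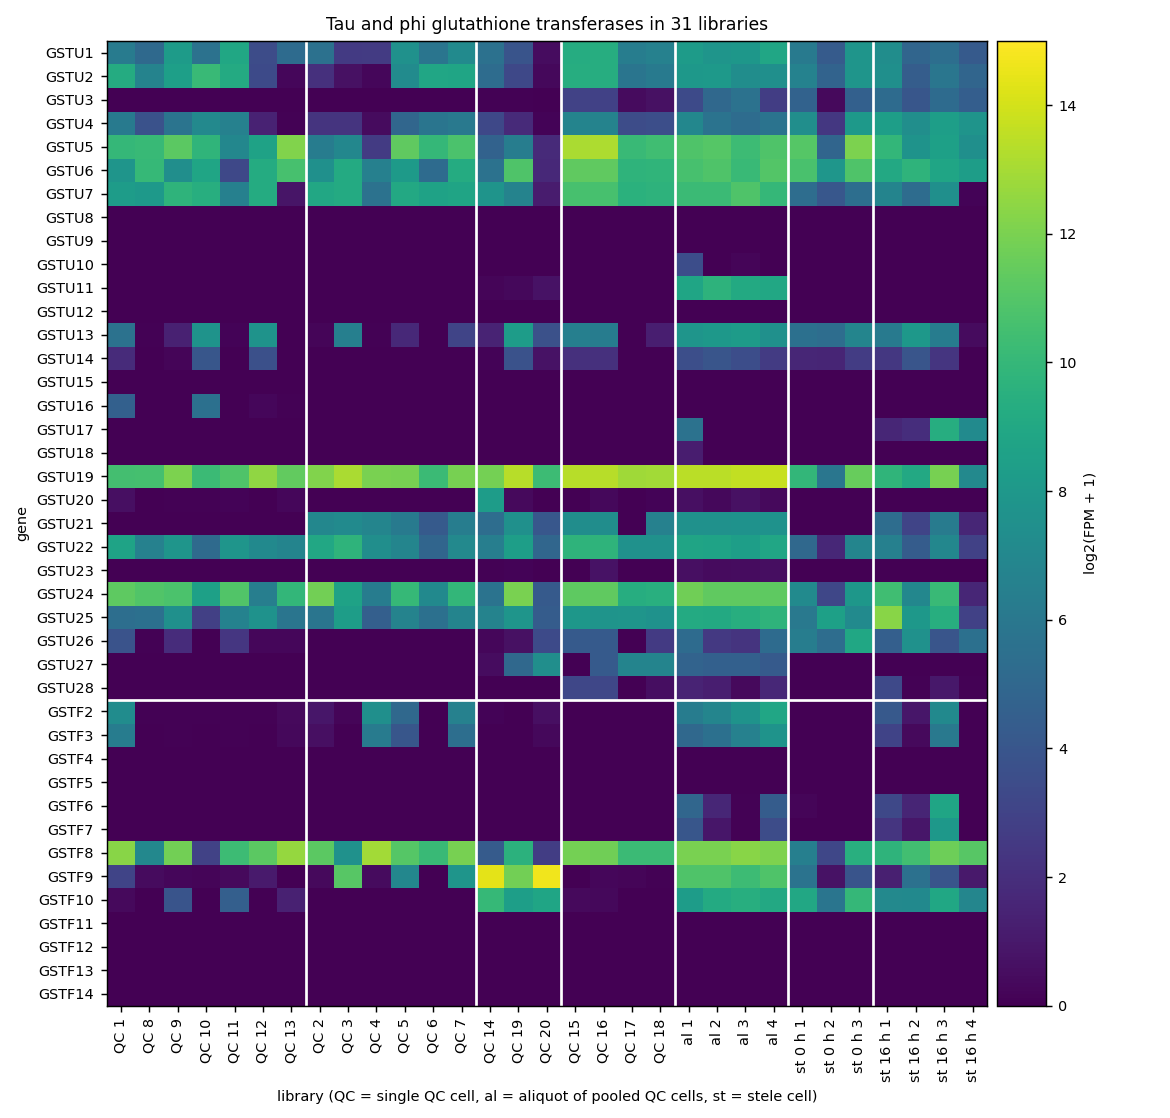
Level of each member (rows, tau above the horizontal line and phi below it) in each library (columns, ordered by set, with white lines between sets), as log2(FPM + 1). *GSTU19* is bright in every QC cell and aliquot, whereas *GSTF9*, *GSTF10*, *GSTU21*, *GSTF2* and *GSTU27* are bright in some cells and dark in others.

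*GSTU19* lies on chromosome 1 in an array with *GSTU20*, *GSTU21*, *GSTU22* and *GSTU23* (chr1:29467412-29488007 in TAIR10.1, minus strand). *GSTU19* had a median of 4002 FPM in QC cells, from 1203 in QC cell 6 to 10937 in QC cell 16. The aliquots, which played no part in the choice of the family, had 10963, 11382, 12658 and 13751 FPM, and only 1 locus of the genome was higher than *GSTU19* in each of them. In the stele, *GSTU19* had 976, 58.6 and 2881 FPM at 0 h and 907, 541, 3896 and 133 at 16 h. Every aliquot was above every single cell, and the stele groups overlapped. Per kb of exon, *GSTU19* had a median of 3573 FPM per kb in QC cells, against 805 for *GSTU24*, 801 for *GSTU5*, 696 for *GSTF8*, 526 for *GSTU7* and 389 for *GSTU6*. In the aliquots it stood at 10732 FPM per kb and *GSTU24*, the next member, at 2144.

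The neighbors of *GSTU19* did not share its level. *GSTU22* had a median of 178 FPM in QC cells (29.0 to 877), 344 to 462 in the aliquots, 33.1, 2.2 and 111 in stele cells at 0 h and 92.2, 20.0, 125 and 6.37 at 16 h. *GSTU21* (AT1G78360) was at 0 in all 7 QC cells of the set of QC cell 1 and in QC cell 17, and reached 16.0 to 185 FPM in the other 12 QC cells. Its median over the 20 cells was 29.2 FPM. The aliquots were close to each other for *GSTU21*, at 193, 192, 197 and 197 FPM. *GSTU21* was also listed at 0 in all 3 stele cells at 0 h and had 40.6, 7.45, 73.7 and 2.05 FPM at 16 h, so that those groups did not overlap. *GSTU20*, whose protein binds the jasmonate-conjugating enzyme JAR1, was above 0 in 11 QC cells, but at most 0.535 FPM outside QC cell 14, where it had 307 FPM. *GSTU23* did not pass 0.679 FPM in any library.

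*GSTU1* to *GSTU7* form the largest array, on chromosome 2 (chr2:12617936-12632538, minus strand), and summed to a median of 2424 FPM in QC cells (6.85 to 14694). *GSTU5* (AT2G29450) had a median of 1017 FPM in QC cells (2.47 to 9104). It had 1902, 2072, 1236 and 1864 FPM in the aliquots, 2104, 29.3 and 4140 in stele cells at 0 h and 970, 211, 373 and 180 at 16 h. Its QC range enclosed all other groups, with QC cells 15 and 16 at the top and QC cell 20 at the bottom. *GSTU6* (AT2G29440) had a median of 518 FPM in QC cells (2.35 to 2614) and 1608, 1881, 1139 and 2048 FPM in the aliquots. In stele cells *GSTU6* had 1625, 232 and 1895 FPM at 0 h and 535, 850, 450 and 329 at 16 h, and the lowest value was again that of 0 h cell 2. *GSTU7* (AT2G29420) had a median of 467 FPM in QC cells (0.814 to 1573) and 1182, 1212, 1871 and 1007 FPM in the aliquots. Stele cells had less of it, with 39.8, 16.0 and 42.0 FPM at 0 h and 109, 39.2, 174 and 0.128 at 16 h. Only QC cells 13 and 20 (0.814 and 1.22 FPM) fell below the stele cells at 0 h for *GSTU7*. Of its exons, 63% overlap a noncoding gene on the other strand, whose reads cannot be told apart because the libraries carry no strand.

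Per kb of exon, the other end of the array was lower in QC cells, with medians of 92.2 FPM per kb for *GSTU2*, 47.6 for *GSTU1* and 10.3 for *GSTU4*. *GSTU1* had a median of 52.6 FPM in QC cells (0.417 to 638), 222 to 475 FPM in the aliquots, 69.3, 18.5 and 223 in stele cells at 0 h and 161, 28.6, 41 and 18.4 at 16 h. *GSTU2* had a median of 87.7 FPM in QC cells (0.188 to 1147), 160 to 271 in the aliquots, 98.5, 26.1 and 223 at 0 h and 180, 20.4, 57.4 and 29.2 at 16 h. For both genes the QC cells enclosed the other groups, and for *GSTU2* 70.3% of the exons overlap a gene on the opposite strand. *GSTU4* had a median of 12.1 FPM in QC cells (0.0626 to 131) and 39.1 to 122 in the aliquots, but 172, 4.30 and 272 FPM in stele cells at 0 h and 332, 167, 339 and 219 at 16 h. All 4 stele cells at 16 h were above all QC cells for *GSTU4*. *GSTU3* was above 0 in 7 QC cells, with at most 6.83 FPM, and at 5.57 to 49.9 FPM in the aliquots. It had 24.9, 0.320 and 23.6 FPM in stele cells at 0 h and 37.3, 14.9, 37.4 and 21.3 at 16 h. Within the array, *GSTU3* and *GSTU4* alone were above every QC cell in any stele cell, namely in all stele cells but 0 h cell 2.

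*GSTU24* (AT1G17170), *GSTU25* (AT1G17180) and *GSTU26* (AT1G17190) lie side by side on chromosome 1 (chr1:5869543-5876620, plus strand) and had different patterns. *GSTU24* had a median of 967 FPM in QC cells (17.6 to 3974) and 3393, 2548, 2601 and 2435 FPM in the aliquots. The stele cells had 145, 8.29 and 245 FPM of *GSTU24* at 0 h and 1330, 124, 1138 and 2.10 at 16 h, a spread that covered most of the QC range. *GSTU25* had a median of 104 FPM in QC cells (6.30 to 329) and 580, 558, 688 and 873 in the aliquots, all above every QC cell. In stele cells *GSTU25* had 67.1, 365 and 145 FPM at 0 h and 5126, 257, 668 and 6.50 at 16 h. Stele 16 h cell 1 thus had the highest *GSTU25* level of all libraries, and 46.7% of the reads of the family in that cell fell on it. *GSTU25* was also the leading member of stele 0 h cell 2 (40.3% of the family), the cell with the least of most others. *GSTU26* had a median of 0.180 FPM in QC cells and at most 18.3, and 37.2, 4.63, 3.83 and 36.4 FPM in the aliquots. It had 79.4, 39.7 and 487 FPM in stele cells at 0 h and 22.6, 188, 14.5 and 45.7 at 16 h. No QC cell reached the lowest stele cell at 0 h.

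Of the remaining tau members, *GSTU11* (AT1G69930) stood apart in the aliquots. It had 450, 837, 541 and 518 FPM there, and at most 0.641 FPM in the 20 single QC cells, 17 of which were at 0, and it was listed at 0 in all stele cells. Its neighbor *GSTU12* was at 0 throughout. *GSTU13*, which has a known role in indole glucosinolate metabolism, had a median of 2.06 FPM in QC cells (0 to 310) and 222, 253, 297 and 184 in the aliquots. Stele cells had 44.9, 39.3 and 111 FPM of it at 0 h and 72.5, 260, 77.8 and 0.342 at 16 h. The QC cells were split, with 8 of them (cells 1, 3, 10, 12, 15, 16, 19 and 20) above 10 FPM and the rest below. *GSTU14*, its close copy, had at most 14.8 FPM in QC cells, 5.15 to 14.7 in the aliquots, 1.88 to 5.41 at 0 h and 0 to 14.4 at 16 h. *GSTU17* (AT1G10370), which acts in light and drought responses, was listed at 0 in all QC cells and all stele cells at 0 h and had 2.09, 2.93, 651 and 142 FPM at 16 h. In the aliquots *GSTU17* had 48.5 FPM in aliquot 1 and at most 0.0185 in the others. *GSTU27* was above 0 in 6 QC cells, all in the set of QC cell 14 or among QC cells 16 to 18, with 108 FPM in each of QC cells 17 and 18 and 169 in QC cell 20. It had 26.5, 23.3, 23.1 and 18.1 FPM in the aliquots and was listed at 0 in the stele. *GSTU16* had 23.2 FPM in QC cell 1, 45.7 in QC cell 10 and at most 0.213 elsewhere, and *GSTU28* stayed under 10 FPM in every library (highest 9.04, in stele 16 h cell 1). *GSTU10* and *GSTU18* were above 0 in aliquots alone.

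*GSTF8* (AT2G47730), an early stress-responsive gene, was in the highest 5% of loci in all aliquots, in all 4 stele cells at 16 h and in 1 of the 3 at 0 h. It had a median of 1668 FPM in QC cells, with 7788 in QC cell 4 and 6266 in QC cell 13, but 18.7, 6.71 and 5.66 FPM in QC cells 14, 10 and 20. The aliquots had 3981, 4017, 5186 and 4408 FPM. Stele cells had 87.0, 7.97 and 694 FPM of *GSTF8* at 0 h and 868, 1404, 3321 and 2238 at 16 h. All 4 cells at 16 h were above all 3 at 0 h, and both stele groups lay within the range of the QC cells. In the set of QC cell 14, the order of *GSTF8* and *GSTF9* was the reverse of that in most cells. *GSTF9* (AT2G30860) had 21528, 3590 and 26401 FPM in QC cells 14, 19 and 20, 2186 in QC cell 3, 225 in QC cell 7 and 124 in QC cell 5. In the other 14 QC cells *GSTF9* was at most 7.54 FPM, and the median of all 20 was 0.334. The aliquots were in between, with 1833, 1836, 1231 and 1902 FPM, and the stele cells low, with 51.3, 0.640 and 13.9 FPM at 0 h and 1.51, 47.3, 14.4 and 1.03 at 16 h. *GSTF10* (AT2G30870), its neighbor on chromosome 2 and a gene induced by dehydration, had 1059, 332 and 443 FPM in QC cells 14, 19 and 20 and at most 22.7 in the other 17. Aliquots had 314, 577, 666 and 532 FPM of *GSTF10*. Unlike *GSTF9*, it was high in the stele, with 509, 56.3 and 1035 FPM at 0 h and 134, 140, 487 and 119 at 16 h. The ratio of *GSTF9* to *GSTF10* ran from 0.00866 to 59.6 over the 13 libraries with at least 20 reads on each gene.

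The other phi members with reads are close copies of each other. *GSTF2*, which is known to bind auxin and camalexin, had 153, 176, 32.1 and 97.2 FPM in QC cells 1, 4, 5 and 7 and at most 0.908 in the other 16 (median 0.0769). The aliquots had 76.5, 111, 209 and 475 FPM of *GSTF2* and 32.3, 46.4, 95 and 208 of *GSTF3*. *GSTF3* had 77.0, 75.2, 15.0 and 42.4 FPM in the same 4 QC cells and at most 0.529 elsewhere. Both genes were listed at 0 in all stele cells at 0 h and in stele 16 h cell 4, and in stele 16 h cells 1, 2 and 3 *GSTF2* had 16.9, 0.881 and 140 FPM and *GSTF3* 7.16, 0.284 and 66.6. *GSTF6*, the camalexin enzyme, was at 0 in all QC cells, with 29.7, 2.10, 0.0548 and 19.9 FPM in the aliquots, at most 0.172 at 0 h and 8.50, 1.99, 455 and 0 at 16 h. *GSTF7*, next to it on chromosome 1, had 15.1, 0.908, 0.0548 and 10.1 FPM in the aliquots, was at 0 at 0 h and had 4.06, 0.909, 253 and 0 at 16 h. Stele 16 h cell 3 was highest in the stele for all 4 genes.

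How far such copies can be told apart depends on their sequences, and the authors counted a read with several locations as a partial read. Coding sequences were 94.5% identical between *GSTF2* and *GSTF3* and 94.3% between *GSTF6* and *GSTF7*, the only 2 of 820 pairs of members above 90%. Pairs above 80% numbered 10, among them *GSTU1* with *GSTU2* (85.5%), *GSTU5* with *GSTU6* (83.1%) and *GSTU13* with *GSTU14* (82.0%). The first 90 coding bases of 3 pairs show the range of the difference. They were read from the RefSeq annotation of TAIR10.1, capitals mark the bases at which the members of a pair differ, and positions are chr4:1111442-1111531 (minus strand) for *GSTF2*, chr2:852017-852106 (minus) for *GSTF3*, chr1:662102-662191 (minus) for *GSTF6*, chr1:659616-659705 (minus) for *GSTF7*, chr1:9425582-9425671 (plus) for *GSTU13* and chr1:9427858-9427947 (plus) for *GSTU14*.
GSTF2: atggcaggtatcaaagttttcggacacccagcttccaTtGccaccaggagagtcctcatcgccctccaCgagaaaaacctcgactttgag
GSTF3: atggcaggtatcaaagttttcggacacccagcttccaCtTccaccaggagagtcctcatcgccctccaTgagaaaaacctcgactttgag
GSTF6: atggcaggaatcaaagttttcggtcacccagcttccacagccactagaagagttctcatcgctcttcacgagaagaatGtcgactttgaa
GSTF7: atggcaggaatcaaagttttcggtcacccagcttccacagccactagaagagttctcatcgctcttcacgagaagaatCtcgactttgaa
GSTU13: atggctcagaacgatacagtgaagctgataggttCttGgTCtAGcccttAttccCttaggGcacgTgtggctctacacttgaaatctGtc
GSTU14: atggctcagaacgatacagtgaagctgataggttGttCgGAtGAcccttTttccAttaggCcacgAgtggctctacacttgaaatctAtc
The starts differ at 3 bases between *GSTF2* and *GSTF3*, at 1 between *GSTF6* and *GSTF7* and at 11 between *GSTU13* and *GSTU14*.

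In the libraries, the ratio of such a pair was nearly fixed where the sequences were nearly the same. *GSTF2* had 1.96 to 2.40 times the FPM of *GSTF3* in the 11 libraries with at least 20 reads on each, QC cells, aliquots and stele cells included. *GSTF6* had 1.80 to 2.32 times the FPM of *GSTF7* in 6 libraries. *GSTU13* over *GSTU14* ran from 13.7 to 35.8 in 17 libraries. By contrast, *GSTU1* over *GSTU2* ran from 0.0432 to 15.2 in 28 libraries and *GSTU5* over *GSTU6* from 0.0438 to 27.3 in 31. A read of 50 bases from the exons of *GSTF6* or *GSTF7* would find a second match of at least 26 bases, enough for the default local alignment, in 44.9% and 46.0% of positions, mostly in each other. For *GSTF2* and *GSTF3* it was 32.6% and 43.4%, and for *GSTU13* and *GSTU14* 4.97% and 6.66%. The separate levels of *GSTF2* and *GSTF3*, and of *GSTF6* and *GSTF7*, are thus uncertain, whereas their sums are less so. The exons of *GSTF2* also overlap AT4G02510 on the opposite strand over 60.5% of their length.

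The comparison of QC cells with stele cells at 0 h asks how the family differs between the 2 tissues. Cell type, reporter line, labelled age, dexamethasone and set of libraries change together here and cannot be told apart. A member was called where the cells of the groups did not overlap and the medians of log2(FPM + 1) were at least 2 apart, which is 4-fold. Of 27 members above 0 in either group, none was called higher in QC cells, where 0.141% of 16270 loci were. *GSTU26* alone was called lower, with -6.09 between the medians on the log2(FPM + 1) scale, where 11.5% of loci were. Left without stele 0 h cell 3, *GSTU19* was called higher as well, where 0.154% of loci were. Without cell 2, *GSTU3* and *GSTU4* joined *GSTU26*, where 13.2% of loci were lower.

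A looser rule, chosen after these values were seen, asked only that the medians be 4-fold apart and allowed the cells to overlap. By it, 6 members were higher in QC cells, where 2.67% of loci were, and 6 were lower, where 49% of loci were. The higher members were *GSTU7* (3.51 on the log2(FPM + 1) scale), *GSTU19* (2.03), *GSTU22* (2.39), *GSTU24* (2.73), *GSTF8* (4.20) and *GSTU21*, listed at 0 in the stele at 0 h. The difference for *GSTU19* rests in part on the values that chose the family and is just past the least difference of 2. With QC cells 15 and 17, each a near copy of another cell, left out, *GSTU19* was no longer among the higher members, which were then 5 (2.59% of loci), and *GSTU6* joined the lower ones, which were then 7 (49.7% of loci). Without stele 0 h cell 2, *GSTU19* and *GSTU22* dropped out of the higher members, which were then 4 (2.61% of loci). The lower members were *GSTU3* (-4.62), *GSTU4* (-3.73), *GSTU13* (-3.91), *GSTU26* (-6.09), *GSTF9* (-3.48) and *GSTF10* (-8.97). The median difference over the 27 members was 0, while over all tested loci it was -1.90. That 0 falls on members with a median of 0 FPM in both groups, among them *GSTU11* and *GSTU27*. The loci above 0 numbered 4646 to 11035 in a QC cell and 11833 to 13082 in a stele cell at 0 h. With libraries scaled by the median of ratios, the shift of all loci was -1.23 and the same members were counted on either side. Which QC cells are used mattered more. In the set of QC cell 14 alone, *GSTU24* (-1.47) and *GSTF8* (-2.16) were lower than in the stele and *GSTF9* (10.49) was higher. In QC cells 15 to 18 alone, which hold 2 pairs of near copies, 5 of 23 members were called higher without overlap (*GSTU7*, *GSTU19*, *GSTU22*, *GSTU24* and *GSTF8*), where 5.04% of loci were, and 3 lower (*GSTU26*, *GSTF9* and *GSTF10*), where 34.8% were. The set of libraries as a cause of these differences was not tested.

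**Figure D3:**
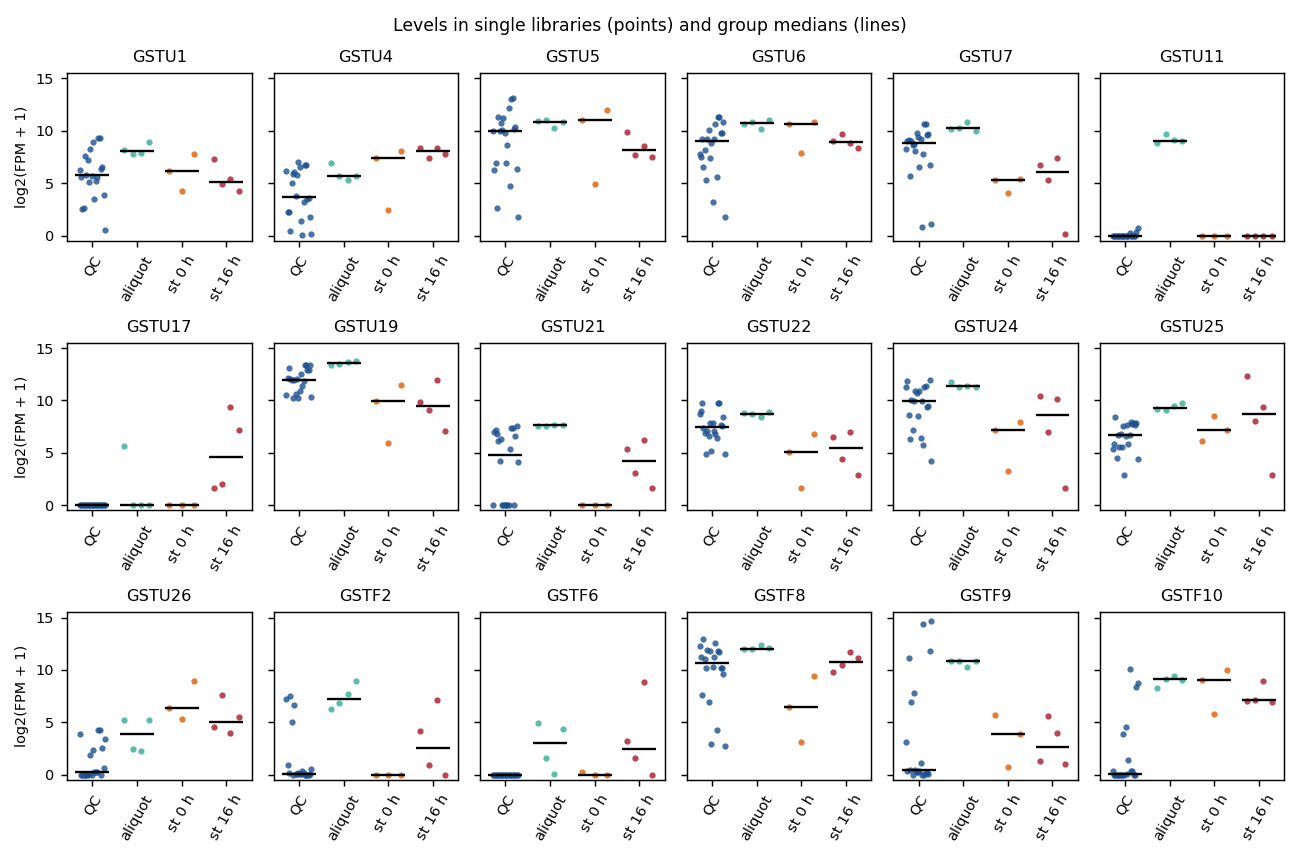
Level of 18 members in every library (points) as log2(FPM + 1), by group (QC, single QC cells; aliquot; st, stele cells at 0 h and 16 h), with the group median as a line. *GSTF8* sits apart between 0 h and 16 h, *GSTU11* is high in the 4 aliquots alone, and *GSTF9* and *GSTU21* split the QC cells into high and low ones.

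The stele cells at 16 h against 0 h ask what changed while the root regenerated its tip, with line, treatment and labelled age in common. The cells of each time form a set of libraries of their own, so that set and time cannot be told apart, and a member at 0 in the first library at 0 h is at 0 in all 3. Of 24 members above 0 in either group, 3 were called higher at 16 h, where 5.83% of 15156 loci were, and none was called lower, where 8.22% were. The 3 were *GSTF8*, with a difference of 4.33 between medians on the log2(FPM + 1) scale, and *GSTU17* and *GSTU21*, which were listed at 0 in all 3 cells at 0 h. *GSTU28* also did not overlap, at 0.0428 to 9.04 FPM against 0, but its medians were less than 4-fold apart. Non-overlap alone held for 4 members, where it held for 10.6% of loci. *GSTF8* and *GSTU21* kept the call with any stele cell left out, which for *GSTU21* could not change the zeros at 0 h, whereas *GSTU17* lost it without 16 h cell 3 or 16 h cell 4. With a pseudocount of 10 FPM, *GSTU21* lost the call and *GSTU17* and *GSTF8* kept it, where 1.77% of loci were higher. Without 16 h cell 4, the cell with the lowest family total at 16 h, *GSTF2*, *GSTF3*, *GSTF6* and *GSTF7* were called too, which made 6, where 9.85% of loci were. *GSTF2* with *GSTF3* and *GSTF6* with *GSTF7* are pairs of close copies, so that these calls are not separate. In 16 h cell 2 these genes had only 0.284 to 1.99 FPM. Without 0 h cell 2, *GSTU5* and *GSTF10* were called lower, where 10.7% of loci were. The looser rule gave 5 members as higher, where it gave 13.3% of loci, by adding *GSTF2* and *GSTF6*, and 1 as lower, *GSTU5* (-2.90), where it gave 16.7%. *GSTU5* turned to 0.16 without 0 h cell 3. The median difference over the 24 members was 0.67 and over all tested loci 0. *GSTU19* itself was within the spread of the cells, with -0.48 between the medians.

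Levels in stele cells at 16 h were also set beside those of QC cells, a comparison added after the values were seen and with the same confounding as at 0 h. *GSTU3*, *GSTU4* and *GSTU17* were above every QC cell in all 4 cells at 16 h, 3 of 29 members where 7.25% of 16296 loci were called higher. None was called lower, where 0.0491% of loci were. The cells at 16 h and the QC cells overlapped for *GSTU19*, *GSTU24*, *GSTF8* and the other members that lead the family in QC cells.

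The aliquots share 1 lysate and carry the spread of handling, amplification and sequencing. Over the 25 members above 0 in at least 1 QC cell and 1 aliquot, the SD of log2(FPM + 1) was larger over the 20 QC cells than over the 4 aliquots for 22 (88%), where it was larger for 63.6% of 10166 loci. The exceptions were *GSTU3*, *GSTU11* and *GSTU26*. The median SD of the members was 2.36 in QC cells and 0.37 in aliquots, against 2.52 and 1.94 for all loci, so that members and all loci were further apart in aliquots than in QC cells. *GSTF9* had the largest SD among QC cells (5.31, against 0.30 in aliquots). *GSTU19* had an SD of 1.12 in QC cells and 0.15 in aliquots. *GSTU21* had the smallest SD in aliquots, 0.02, beside 3.31 in QC cells. That 3.31 includes the set of QC cell 1, where *GSTU21* was at 0 in all 7 cells. Its SD was 1.07 within the set of QC cell 2, 1.74 within that of QC cell 14 and 3.57 in QC cells 15 to 18. Aliquots were also deeper than most QC cells. The paper found technical noise to be greatest at low expression, and the loci were not matched to the members by level. The QC cells also span several sets of libraries, whereas the aliquots form 1 set. The parts of depth, of level and of the sets were not tested.

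**Figure D4:**
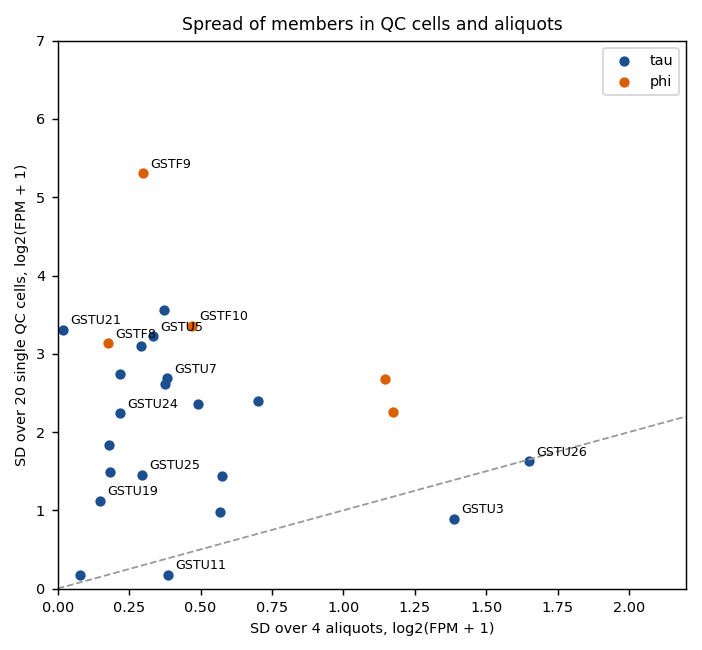
SD of log2(FPM + 1) over 20 single QC cells (vertical axis) against that over 4 aliquots of pooled QC cells (horizontal axis) for 25 members, tau in blue and phi in orange, with a dashed line of equality. All but *GSTU3*, *GSTU11* and *GSTU26* lie above the line.

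Single QC cells fell short of the aliquots for several members, in a comparison added after the values were seen. *GSTU11*, *GSTU21*, *GSTU25*, *GSTF6* and *GSTF7* were lower in every QC cell than in every aliquot and 4-fold lower in the median, 5 of 31 members where 1.79% of 15013 loci were called. None was called higher, where 0.0266% of loci were. For *GSTU25* the medians were 104 and 634 FPM. *GSTU11*, *GSTF6* and *GSTF7* had medians of 529, 11.0 and 5.49 FPM in the aliquots and of 0 in QC cells. In aliquot 3, *GSTF6* and *GSTF7* had only 7 reads each, and most QC cells had fewer reads in total than any aliquot. The separate levels of these close copies are uncertain, so that their calls may not be separate. The part of depth in these calls was not tested. The cells pooled for the aliquots were not among the 20 profiled singly.

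Among themselves, the members above 0 in all QC cells were correlated to different degrees. Over 55 pairs of the 11 members and 20 QC cells, the Pearson correlation of log2(FPM + 1) had a median of 0.43 and ran from -0.15 for *GSTU2* with *GSTU19* to 0.97 for *GSTU2* with *GSTU4*. *GSTU1* with *GSTU4* (0.81) and with *GSTU2* (0.80) were also high, and these 3 genes share parts of their sequence, since 19.6% of the positions of *GSTU2* and 21.7% of those of *GSTU4* have a second match as above. *GSTU19* was closest to *GSTU25* (0.82) and *GSTU22* (0.73), from another array and its own. Here too sequence is shared, since 7.93% of the positions of *GSTU19* have a second match, most often in *GSTU25* and *GSTU22*. For *GSTU25* it was 3.27%, in *GSTU19*. The part of shared reads in these correlations was not tested. With QC cells 15 and 17 left out, the correlations named were -0.26, 0.97, 0.80, 0.79, 0.80 and 0.70 in the same order, and the median was 0.38. The cells share sets of libraries, so that these values describe the cells alone. Correlations among other loci above 0 in every QC cell were not computed, so that nothing here is particular to the family.

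Upstream of the genes, the letters TGACG, or CGTCA on the other strand, were searched in the 250 bases before the annotated start. TGACG is the core of the elements to which TGA factors bind, and TGA factors with the regulator SCL14 are known to act in xenobiotic and oxylipin responses of the family. The motif and the window were chosen after the levels were seen, and no other motif was searched. It was found upstream of 14 of 41 members (34.1%) and of 5098 of 27443 protein-coding genes (18.6%). Of the 11 members above 0 in all QC cells 8 had it, and of the other 30 members 6. Several of the 8 lie in arrays with each other, and the share among all loci above 0 in every QC cell was not counted. A link between the motif and the levels in QC cells was therefore not tested. *GSTU19* had none. The upstream bases of the member with the most matches and of 3 of the highest members per kb in QC cells are shown with matches in capitals, from TAIR10.1 at chr1:29488008-29488257 (minus strand) for *GSTU19*, chr2:12618900-12619149 (minus) for *GSTU7*, chr1:5869293-5869542 (plus) for *GSTU24* and chr2:19556076-19556325 (plus) for *GSTF8*. This choice was made after the matches were seen.
GSTU19: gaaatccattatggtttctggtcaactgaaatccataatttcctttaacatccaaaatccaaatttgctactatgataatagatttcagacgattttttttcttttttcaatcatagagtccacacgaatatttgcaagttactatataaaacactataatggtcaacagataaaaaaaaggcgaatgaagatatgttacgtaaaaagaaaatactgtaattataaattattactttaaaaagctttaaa
GSTU7: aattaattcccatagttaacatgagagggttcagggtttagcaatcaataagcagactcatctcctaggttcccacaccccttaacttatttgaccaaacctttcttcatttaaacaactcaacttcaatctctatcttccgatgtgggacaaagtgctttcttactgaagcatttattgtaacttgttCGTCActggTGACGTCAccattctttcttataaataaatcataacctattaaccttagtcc
GSTU24: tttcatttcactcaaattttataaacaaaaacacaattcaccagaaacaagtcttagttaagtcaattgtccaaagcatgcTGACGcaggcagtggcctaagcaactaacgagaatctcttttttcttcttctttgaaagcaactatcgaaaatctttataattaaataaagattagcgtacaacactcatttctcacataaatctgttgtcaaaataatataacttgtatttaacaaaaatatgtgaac
GSTF8: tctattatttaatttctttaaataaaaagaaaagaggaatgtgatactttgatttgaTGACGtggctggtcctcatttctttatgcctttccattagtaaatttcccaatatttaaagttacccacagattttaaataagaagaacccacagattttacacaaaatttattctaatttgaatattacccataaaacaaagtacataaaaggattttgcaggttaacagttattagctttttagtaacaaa
*GSTU7* holds 3 matches, 2 of which overlap as a palindrome, and *GSTU24* and *GSTF8* hold 1 each. A match is a description of the letters, and no binding was measured.

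Other genes of the pathway were read from lists. These were chosen with earlier results of these data known, so that counts of calls within them are a description. Among 7 xenobiotic and oxylipin response genes, 2 were called higher in QC cells than in stele cells at 0 h and none lower. Of all loci, 0.141% were called higher and 11.5% lower, which holds beside the other lists too. The 2 were *UGT73B4* and *UGT73B5*, which encode stress-induced glucosyltransferases. How far reads are shared between these 2 genes was not examined. *UGT73B4* had a median of 3023 FPM in QC cells (410 to 5379), 6563 to 7852 in the aliquots and 48.6, 0.391 and 68.4 in the stele at 0 h. *UGT73B5* had a median of 2694 FPM in QC cells (438 to 9667) and 92.4, 0.178 and 29.2 at 0 h. *OPR1*, an oxophytodienoate reductase gene, was very high but spread, with a median of 5999 FPM in QC cells (10.6 to 43972) and 4219, 31.2 and 5809 in the stele at 0 h. The transporters *ABCC1*, *ABCC2* and *ABCC3*, the regulators *TGA2*, *TGA5*, *TGA6* and *SCL14*, and 12 glutathione transferases of other classes gave no call in either direction in the comparison with the stele at 0 h, and neither did 7 genes of glutathione synthesis, reduction and breakdown. Over those 7 genes, however, the median difference was -4.52 on the log2(FPM + 1) scale, beside -1.90 for all loci. *GSH1*, which makes the first enzyme of glutathione synthesis, had a median of 21.7 FPM in QC cells (0.118 to 2219) and 217 to 419 at 0 h. The 12 transferases of other classes summed to a median of 394 FPM in QC cells (2.98 to 1037), beside 12764 for the tau and phi members. Of 6 genes known to respond to wounding and digestion, none was called in either direction, and their summed level was 308 to 11396 FPM in QC cells and 7820 to 8239 in the aliquots, against 1726 to 3145 in the stele at 0 h. Their part in the levels of the family was not tested. At 16 h against 0 h, 5.83% of all loci were called higher and 8.22% lower. *ABCC3*, 1 of 3 transporters, was called higher, at 187, 235, 114 and 80.8 FPM against 5.16, 1.81 and 8.66. *TGA6*, 1 of 4 regulators, was also called higher. So was *GSTZ1*, a zeta transferase of tyrosine breakdown and 1 of 9 transferases of other classes tested. *NAC102*, 1 of 7 xenobiotic and oxylipin response genes, was called lower, with 875, 358, 189 and 78.8 FPM against 1937, 2427 and 1031.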

How the data were processed

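Single cells and aliquots were amplified as cDNA and sequenced as single-end reads of 50 bases by the authors, who aligned them to TAIR10 with Bowtie2, summed reads on exons, split reads with several locations into partial reads, removed genes with coverage under 200 bp, normalized to depth and deposited log2 values of the depth-normalized reads plus 1. The log2 was undone, and the spacing of low values gave whole reads within 0.05 for 100% of values under 1000 reads in every library. This step was taken as 1 read and may stand for less. FPM were shares of all 32678 loci times 1000000, with the 2 reporter sequences left out. The total of reads per library limits low levels, and 1 read was the lowest value in most libraries but 2 reads in others.

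The groups came from the labels. Values with a median of at least 10 FPM in a group, or called, were given by library (lowest, median and highest for QC cells), and the rest by range. Calls used a pseudocount of 1 FPM and a least difference of 2 on the log2 scale. The members and lists were chosen with earlier results of these data known, and the rule on medians alone, each set of QC cells alone, the comparisons with aliquots and of 16 h with QC cells, the member correlations and the motif were chosen after seeing the data. Alternatives were detection at 1 or 10 FPM, other pseudocounts, other least differences, median of ratios scaling, thinning to 11637897 reads, a mean of at least 10 FPM, the CV in place of the SD, and libraries left out. In simulated data, 100% of 200 genes changed 16-fold were recovered between stele cells at 16 h and 0 h over 32678 loci, with 9 calls among the others. The simulated spread between cells was smaller than that of many members in the stele. Only genes well above 0 were changed, and no zeros were shared within a set. The simulation checks that the rule runs as written and gives no rate of recovery or false calls for these data. Sequences came from the RefSeq annotation of TAIR10.1, and the deposited table holds no coordinates. Python 3.11.15, numpy 2.4.6, pandas 2.3.3, scipy 1.17.1 and biopython 1.88 were used.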

Additional observations from a re-analysis of the deposited data

Results flagged for a closer look

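In groups of 4 libraries, a value was picked out where its gap to the nearest other value, as a part of the range of the group, was past Dixon's critical value. Of 56 groups examined, 5 were past it, and chance gives about 1 in 20 where values are independent, which libraries of 1 set may not be. This picks values out and tests no difference between groups. *GSTU10* had 10.5 FPM in aliquot 1 and 0.0277 to 0.133 in the other aliquots. *GSTU17* had 48.5 FPM in aliquot 1 and 0 to 0.0185 in the others. *GSTU18*, its neighbor with an overlap of exons, had 1.29 FPM in aliquot 1 and 0 to 0.0119 in the others. *GSTF9* had 1231 FPM in aliquot 3 and 1833 to 1902 in the others. *GSTF10* had 487 FPM in stele 16 h cell 3 and 119 to 140 in the other cells at 16 h. Aliquot 1 is the first library of its set, and the part of this in its 3 values was not tested.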

How the results depend on the processing

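No paired analysis was possible because no test was made across cells and replicate numbers are names alone. Of the values that answer a comparison, 146 alternatives gave much the same value and 34 did not, and of those for single genes 197 did, 21 moved and 4 turned. A level, share or difference was much the same if it moved by less than the SD between cells, and a count if it stayed within a set factor. Where cells spread widely a value had much room to move, so these tallies do not measure how stable the values are. Members above 0 in every QC cell were 11 (26.8%, against 5.52% of all loci), and 7 at 1 FPM, 3 at 10 FPM and 24 in the set of QC cell 14. For the last 3 counts the share of all loci was not counted. The set of QC cell 14 had a family total of 27294 FPM and a *GSTU19* share of 13.6%, and QC cells 15 to 18 had a total of 23012 FPM. Leaving out 1 stele cell gave family totals of 3518 to 9338 FPM at 0 h and 4341 to 10969 at 16 h. Leaving out 1 aliquot gave 22 to 23 members with the larger spread in QC cells. Members higher in QC cells than in the stele at 0 h numbered 0 to 1 with a stele cell left out (0.154% to 0.327% of loci), and 2, 3 and 5 in the sets of QC cells 2 and 14 and in QC cells 15 to 18 (1.22%, 5.52% and 5.04% of loci). Members lower numbered 1 to 3 with a stele cell left out (12.9% to 13.9% of loci), 2 without QC cells 14, 16, 19 and 20 (20.8%), and 3, 3, 2 and 3 in the sets of QC cells 1, 2 and 14 and in QC cells 15 to 18 (37.6%, 40.2%, 26.3% and 34.8%). By medians alone, 4 to 7 were higher (2.61% to 3.25% of loci) and 5 to 7 lower (49.99% to 50.9%) with a stele cell left out, and 3 were higher in the set of QC cell 14 (11.2%). In that set, *GSTU24* (-1.47), *GSTF8* (-2.16) and *GSTF9* (10.49) turned. From 0 h to 16 h, 2 to 6 members were higher (5.90% to 9.85% of loci) and 0 to 2 lower (8.85% to 11.5%) with a stele cell left out. By medians alone, 2 to 9 were higher (12.9% to 17.1% of loci) and 0 to 4 lower (15.2% to 19.3%), and higher and lower numbered 9 and 6 with a least difference of 1 (25.6% and 28.4% of loci) and 3 and 2 with median of ratios scaling (8.70% and 15.1%), while 2 were higher with a pseudocount of 10 FPM (3.27%). *GSTU5* ran from -3.39 to 0.16 with a stele cell left out, and turned without 0 h cell 3. The cause was not tested. Depth limits the lowest levels, and a gene listed at 0 may have been removed for low coverage.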
